A study of Mus musculus with 24 samples.

Results

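The genes examined here code for the enzymes, regulators and sterol carrier of cholesterol and fatty acid synthesis, measured by bulk RNA sequencing of whole mouse kidney. The 32 genes were named one by one by their place in these pathways, by a rule that used no measured value. They were, however, chosen with earlier results of these data known. All 32 were found among the 35413 genes to which the deposited transcripts could be assigned. They do not cover every enzyme of the pathways. All 32 passed the filter on low counts in each comparison.

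Kidneys came from 2 experiments with 24 libraries in all. In the first, mice with a floxed ENPP1 allele carried or lacked the CAG-ERCre transgene, a tamoxifen-activated recombinase under a promoter active in most cell types, and tamoxifen was given to induce deletion. The groups were Cre-positive mice labelled ENPP1 knockout on an adenine diet (6 libraries), Cre-negative mice labelled wild type on the same diet (6 libraries), and controls on chow (4 libraries). In the second, mice on the adenine diet received a monoclonal antibody against human ENPP1 (4 libraries) or control IgG (4 libraries), each at 50 mg/kg by intraperitoneal injection, 2 times per week. The diet lasted 14 days in both. Adenine in the diet is oxidised to a poorly soluble product that forms crystals in the tubules, a standard way to injure the kidney. ENPP1 is a cell-surface enzyme that splits extracellular nucleotides. The genotype of the chow mice, the sex, age and strain of all mice, whether the wild-type and chow mice received tamoxifen, and whether the mice of the second experiment carried a human ENPP1 gene were not stated in the sources used here. Nor do they say that libraries of a group came from separate animals, so p-values measure the spread between libraries.

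Libraries held 21164187 to 28350038 reads in the knockout experiment and 44080791 to 50813749 in the antibody experiment, of which mitochondrial genes took 16.9% to 26.7% and 20.6% to 30.1%. No 2 libraries held identical counts. Levels are given below as CPM, read counts scaled to the effective library size, which compare libraries for 1 gene, and as TPM, which also corrects for transcript length, where genes are compared. All 8 genes of a kidney identity list were detected in each group. Enpp1 RNA was not lower in the libraries labelled knockout, at 21.6 to 24.7 CPM (median 22.4), than in wild-type libraries, at 20.9 to 24.9 CPM (median 21.3). Its fit gave log2 change 0.05, SE 0.051, adjusted p = 0.466. The sources do not say which exons recombine, and reads from the rest of the gene would still be counted, so the deletion was not checked by this value.

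Cells make cholesterol from acetyl-CoA through mevalonate, farnesyl diphosphate, squalene and lanosterol, and make fatty acids from the same acetyl-CoA through malonyl-CoA. Transcription of both pathways is driven by the SREBP factors, which are held in the endoplasmic reticulum by SCAP and the INSIG proteins while sterols are plentiful and are released when sterols fall. SREBP-2, from Srebf2, acts mainly on cholesterol genes and SREBP-1, from Srebf1, mainly on fatty acid genes. Kidney tubules burn fatty acids as their main fuel and both take up and make cholesterol.

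SREBP factors bind DNA beside the factors NF-Y, at CCAAT, and Sp1, at GC boxes, so the promoters of the members were read for these letters. RefSeq promoters, from 250 bases before to 50 after an annotated start on GRCm38.p6, were given for 26 of the 32 genes. Shown here are the promoters of Insig1, Srebf2 and Hmgcs1, which hold the short sterol regulatory element core CACNCCA, and of Cyp51 and Mvd, sterol genes without it that were among the 10 most changed members with the diet, in knockouts and with the antibody. Insig1 (chr5:28071162-28071461, plus strand), Srebf2 (chr15:82147019-82147318, plus strand), Hmgcs1 (chr13:119690101-119690400, plus strand), Cyp51 (chr5:4104648-4104947, minus strand) and Mvd (chr8:122443373-122443672, minus strand) are printed along the gene's own strand, with capitals for CACNCCA and CCAAT read on either strand.
Insig1: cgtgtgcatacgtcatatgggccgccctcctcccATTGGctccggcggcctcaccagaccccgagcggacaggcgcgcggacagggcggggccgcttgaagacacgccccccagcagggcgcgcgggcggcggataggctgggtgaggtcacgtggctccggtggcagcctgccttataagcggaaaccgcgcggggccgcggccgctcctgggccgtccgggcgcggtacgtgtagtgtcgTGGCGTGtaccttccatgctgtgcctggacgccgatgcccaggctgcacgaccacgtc
Srebf2: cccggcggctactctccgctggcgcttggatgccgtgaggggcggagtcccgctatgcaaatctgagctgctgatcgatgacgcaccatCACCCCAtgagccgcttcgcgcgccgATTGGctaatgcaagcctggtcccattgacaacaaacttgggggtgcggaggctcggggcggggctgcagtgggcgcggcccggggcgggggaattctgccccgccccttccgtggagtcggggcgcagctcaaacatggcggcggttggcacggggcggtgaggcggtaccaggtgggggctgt
Hmgcs1: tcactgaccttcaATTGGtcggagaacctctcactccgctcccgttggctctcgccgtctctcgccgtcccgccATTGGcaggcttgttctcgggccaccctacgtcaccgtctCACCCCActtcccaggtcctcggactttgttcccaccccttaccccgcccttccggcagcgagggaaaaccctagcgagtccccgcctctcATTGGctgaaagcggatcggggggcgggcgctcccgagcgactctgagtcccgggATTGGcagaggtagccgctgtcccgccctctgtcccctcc
Cyp51: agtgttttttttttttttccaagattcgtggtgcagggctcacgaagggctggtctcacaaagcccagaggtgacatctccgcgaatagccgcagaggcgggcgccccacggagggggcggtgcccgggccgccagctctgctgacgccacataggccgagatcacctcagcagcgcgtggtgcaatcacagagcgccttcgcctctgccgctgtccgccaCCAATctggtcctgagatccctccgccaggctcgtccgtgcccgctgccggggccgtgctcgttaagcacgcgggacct
Mvd: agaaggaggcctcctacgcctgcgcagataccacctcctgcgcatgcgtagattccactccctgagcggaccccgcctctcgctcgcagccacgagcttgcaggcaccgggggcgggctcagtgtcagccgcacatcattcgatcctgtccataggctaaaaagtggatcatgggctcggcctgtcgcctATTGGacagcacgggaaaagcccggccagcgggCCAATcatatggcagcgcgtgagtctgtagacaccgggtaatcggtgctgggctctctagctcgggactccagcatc

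The letters CCAAT, on either strand, stood in the promoters of 22 of the 26 members (84.6%), against 41.1% of the 27025 genes in the promoter table and 42.4% of the 12462 tested genes with a promoter. Acat2, Scap, Acaca and Elovl6 had none. The GC box GGGCGG was also found in 22 of 26 (84.6%), against 38.2% of all genes and 61.9% of tested genes. CACNCCA was found in 6 of 26 (23.1%), against 20.6% of all genes and 20.7% of tested genes, and these 6 were Acat2, Hmgcs1, Insig1, Insig2, Msmo1 and Srebf2. The longer TCACNCCAC, which contains CACNCCA, was found in Hmgcs1 (1 of 26, 3.85%), against 1.44% of all genes and 1.41% of tested genes. In Hmgcs1 the CACNCCA match began 136 bases before the start, and 4 CCAAT matches on the opposite strand lay around it. These matches describe the letters of a window and were not tested as binding sites.

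The first comparison asked what the adenine diet did to these genes in wild-type kidneys. Most of them fell. Of the 32 genes, 26 were lower in wild-type adenine kidneys than in chow kidneys, 3 were higher (Srebf1, Dhcr7 and Fdps) and 3 did not pass the threshold (Fdft1, Lss and Acaca), by edgeR's quasi-likelihood test with Benjamini-Hochberg adjustment over 16959 genes at an adjusted p under 0.05. Among all tested genes 40.9% were called lower and 44% higher. The median log2 change was -0.86 over the 32 genes and 0.073 over all tested genes. In 24 of the 32 genes the adenine and chow libraries did not overlap, a share like the 75.2% of all tested genes. Upper-quartile scaling, which moved the median of all genes to 0.3, called 5 of the 32 higher and 21 lower, and 8791 of all genes higher and 5780 lower, against 7455 and 6944.

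The second comparison asked how labelled knockout kidneys differed from wild-type kidneys on the adenine diet. Of the 32 genes, 24 were higher in knockout kidneys, none was lower and 8 did not pass, with a median log2 change of 0.3, against -0.02 over all tested genes. Among the 16959 tested genes 25.1% were called higher and 21.3% lower. None was called lower by DESeq2 or limma voom either, and none of the 32 had a negative change with an unadjusted p under 0.05. Levels in knockout and wild-type libraries did not overlap in 17 of the 32 genes, against 24.7% of all tested genes. Upper-quartile scaling called 3485 of all genes higher and 5072 lower in knockouts, against 4261 and 3612. Against chow, 23 of the 32 genes were lower in knockout adenine kidneys and 4 were higher, against 39.9% lower and 40.2% higher among all tested genes. These comparisons share libraries, so their values are set side by side and not counted as separate support.

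**Figure D1:**
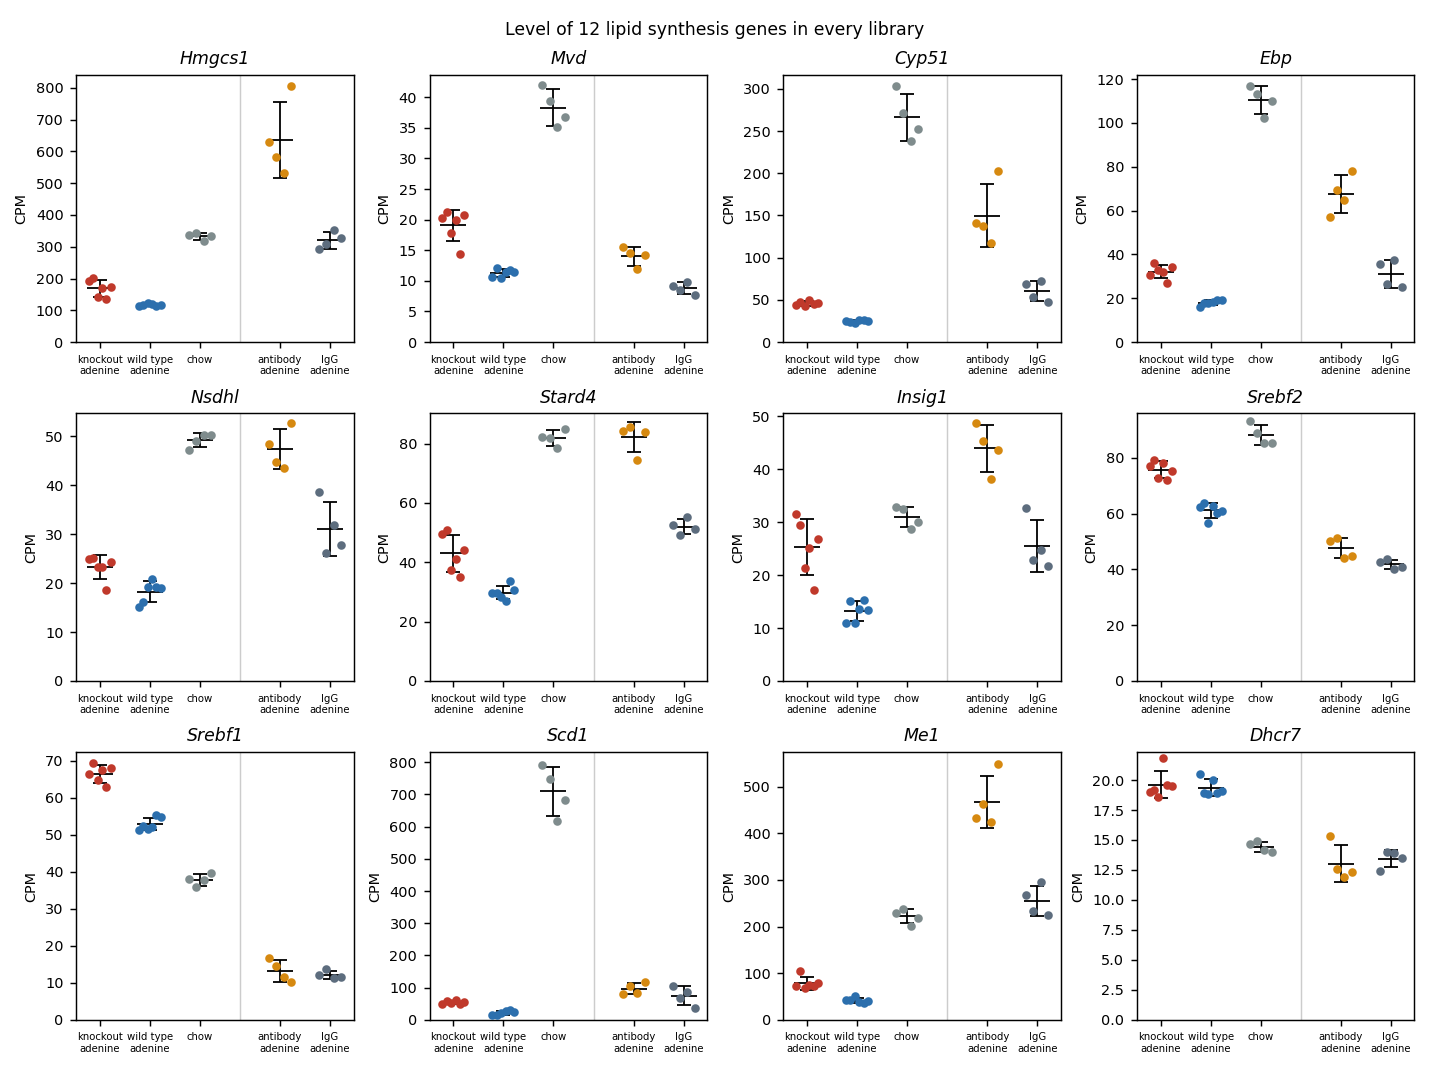
Read counts scaled to library size (CPM, linear axis from 0) of 12 genes in every library, as points, with the mean and SD in black. From left to right stand labelled knockout on adenine (n = 6), wild type on adenine (n = 6) and chow (n = 4), then antibody (n = 4) and IgG (n = 4), both on adenine, scaled apart from the first 3 groups. Knockout points of Cyp51 and Ebp lie above all wild-type points and below all chow points, while Srebf1 runs the other way against chow.

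In the early pathway to farnesyl diphosphate 6 of 7 genes were lower in wild-type adenine than in chow kidneys. Hmgcs1, which makes HMG-CoA, had 135 to 201 CPM (median 172) in knockout adenine libraries, 112 to 122 CPM (median 117) in wild-type adenine libraries and 337, 343, 318 and 335 CPM in chow libraries. Its fall with the diet (log2 change -1.51, SE 0.085, adjusted p = 3.77e-12) was larger than its rise in knockouts (log2 change 0.53, SE 0.078, adjusted p = 2.4e-05). The 3 groups did not overlap. Mvd, which makes isopentenyl diphosphate, had 14.4 to 21.2 CPM (median 20.1) in knockout, 10.4 to 12.1 CPM (median 11.4) in wild-type and 42, 39.4, 35.1 and 36.8 CPM in chow libraries. Here the change with the diet was -1.76 (SE 0.087, adjusted p = 6.02e-13) on the log2 scale and that with the knockout 0.75 (SE 0.082, adjusted p = 9.09e-07). The Mvd groups were also apart, with knockout libraries nearer to wild type than to chow. Mvk, the mevalonate kinase, was a low transcript at 6.15 to 7.3 CPM (median 6.88) in knockout, 3.81 to 5.82 CPM (median 4.79) in wild-type and 10.4, 11.2, 8.81 and 7.8 CPM in chow libraries (log2 change 0.5, SE 0.11, adjusted p = 0.00112 for knockout against wild type). Idi1, which isomerises isopentenyl diphosphate, fell with the diet (log2 change -0.99, SE 0.09, adjusted p = 4.43e-09) and rose by less in knockouts (log2 change 0.31, SE 0.082, adjusted p = 0.00446), where its libraries overlapped wild type. Pmvk, the phosphomevalonate kinase, was at 0.782 times its chow level in wild type (log2 change -0.36, SE 0.092, adjusted p = 0.00147). Fdps, which makes farnesyl diphosphate, was slightly higher with the diet (log2 change 0.15, SE 0.059, adjusted p = 0.026), and neither Pmvk nor Fdps passed the threshold between knockout and wild type.

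Acat2, the cytosolic thiolase that opens the pathway, is reported as uncertain because 43.7% of its 31-base words, read on either strand, also occur in Acat3, a near-identical gene. Acat2 had 37.9 to 52.7 CPM (median 46.8) in knockout adenine libraries, 25.7 to 34.6 CPM (median 28.5) in wild-type adenine libraries and 99.3, 95.9, 85.1 and 95.3 CPM in chow libraries. By itself it fell with the diet (log2 change -1.69, SE 0.082, adjusted p = 4.29e-13) and rose in knockouts (log2 change 0.66, SE 0.075, adjusted p = 1.64e-06). Acat3 went the other way, averaging 70.3 ± 7.71 CPM in knockout, 92.3 ± 15.4 CPM in wild-type and 28 ± 1.75 CPM in chow libraries (SD, n = 6, 6 and 4). Its log2 change was 1.72 with the diet (SE 0.11, adjusted p = 3.35e-11) and -0.39 in knockouts (SE 0.091, adjusted p = 0.00187). The sum of both genes was 116 ± 9.38 CPM in knockout (SD, n = 6), 121 ± 14.3 CPM in wild-type (SD, n = 6) and 122 ± 4.77 CPM in chow libraries (SD, n = 4). Fitted as 1 gene, a setting chosen after seeing the data, they gave a log2 change of -0.01 with the diet (adjusted p = 0.931) and -0.06 in knockouts (adjusted p = 0.49). How the counting shared reads between the genes was not tested. Without Acat2, 25 of 31 genes were lower with the diet and 23 of 31 higher in knockouts.

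**Figure D2:**
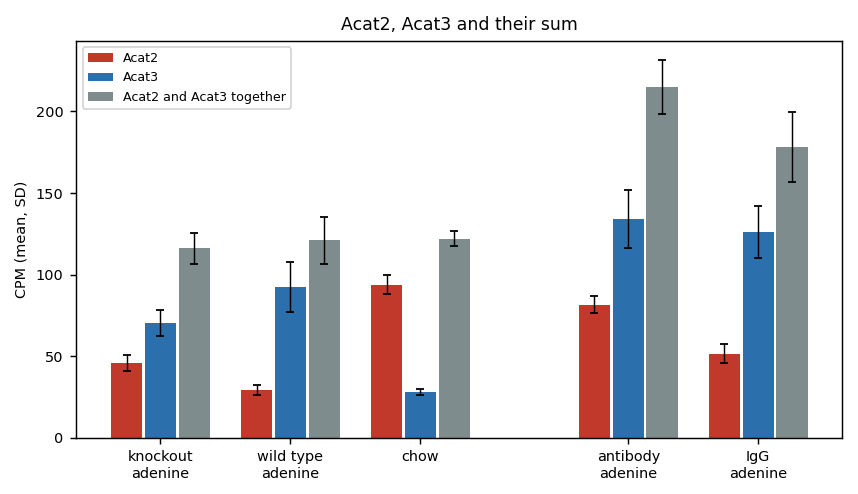
Mean CPM of Acat2, of Acat3 and of their sum in each group, with SD as bars (n = 6, 6, 4, 4 and 4 from left to right, linear axis from 0). Among the first 3 groups the sum stays between 116 and 122 CPM while its parts change places.

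From farnesyl diphosphate to lanosterol the changes were small. Fdft1, the squalene synthase, did not pass in any comparison of the knockout experiment, with a 95% interval of -0.15 to 0.22 for the log2 change with the diet and -0.15 to 0.18 in knockouts. Of its 31-base words 31.9% occur in other genes, 17.6% in Ctsb, with both strands of their transcripts read. Words shared on the opposite strand alone were not separated, although the libraries are stranded. Me1 (36.9%), Acaca (33.5%), Fdps (27.9%) and Idi1 (27.1%) share such words most with the predicted genes Gm7049, Gm5182, Gm43738 and Gm13502, none of which averaged over 0.0918 CPM in any group. Sqle, the squalene epoxidase, averaged 35.9 ± 2.32 CPM in knockout (SD, n = 6), 35.6 ± 2.73 CPM in wild-type (SD, n = 6) and 41.4 ± 4.21 CPM in chow libraries (SD, n = 4), with log2 change -0.22, SE 0.07, adjusted p = 0.00716 for wild type against chow. Lss, which closes the ring to lanosterol, was higher in knockout than in wild-type kidneys (log2 change 0.29, SE 0.068, adjusted p = 0.00175) and did not pass between wild type and chow (log2 change -0.17, SE 0.077, adjusted p = 0.0526). Libraries of adenine and chow kidneys overlapped in all 3 genes.

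From lanosterol to cholesterol 8 of 9 genes were lower in wild-type adenine than in chow kidneys, and the largest changes of the cholesterol genes lay here. Cyp51, which removes the 14-alpha methyl group of lanosterol, had 42.4 to 49.7 CPM (median 45.2) in knockout adenine libraries, 22.7 to 26.3 CPM (median 25.2) in wild-type adenine libraries and 303, 272, 238 and 252 CPM in chow libraries. That is 0.0932 times the chow level in wild type (log2 change -3.42, SE 0.066, adjusted p = 4.55e-17) and 1.84 times the wild-type level in knockouts (log2 change 0.88, SE 0.06, adjusted p = 1.05e-08). Every knockout library stood above every wild-type library and below every chow library. Ebp, the sterol isomerase, had 26.9 to 35.9 CPM (median 32.4) in knockout, 16.2 to 19.1 CPM (median 18) in wild-type and 117, 113, 102 and 110 CPM in chow libraries. Its log2 change was -2.62 with the diet (SE 0.067, adjusted p = 3.74e-16) and 0.84 in knockouts (SE 0.063, adjusted p = 2.36e-08), again with no overlap. Nsdhl, which takes part in removing the methyl groups at carbon 4, had 18.5 to 25.1 CPM (median 23.9) in knockout, 15.1 to 20.8 CPM (median 19.1) in wild-type and 47.3, 49, 50.3 and 50.2 CPM in chow libraries. It was lower with the diet (log2 change -1.43, SE 0.084, adjusted p = 7.57e-12) and it rose in knockouts (log2 change 0.35, SE 0.079, adjusted p = 0.00139), with some knockout and wild-type libraries at the same level. Hsd17b7, the reductase of that same step, fell with the diet (log2 change -1.01, SE 0.11, adjusted p = 4.46e-08) and missed the threshold in knockouts (log2 change 0.22, SE 0.098, adjusted p = 0.0774).

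Sc5d, the sterol desaturase, Tm7sf2, one of the sterol reductases of carbon 14, and Msmo1, the methyl sterol oxidase, fell with the diet by log2 changes of -0.73, -0.72 and -0.32. They rose in knockouts by about the same amount as each other, 0.22, 0.21 and 0.22, and their knockout and wild-type libraries overlapped. Lbr, the other carbon 14 reductase and a protein of the inner nuclear membrane, changed by -0.15 with the diet (adjusted p = 0.0258). Dhcr7, which makes cholesterol from 7-dehydrocholesterol, was the exception among the sterol enzymes after lanosterol. It had 18.6 to 21.8 CPM (median 19.4) in knockout, 18.8 to 20.5 CPM (median 19) in wild-type and 14.7, 14.9, 14.2 and 14 CPM in chow libraries. Both adenine groups lay above chow (log2 change 0.42, SE 0.052, adjusted p = 4.57e-07 for wild type against chow), and they overlapped each other (log2 change 0.02, 95% interval -0.07 to 0.11).

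Among the regulators and the sterol carrier, 5 of 6 genes were lower in wild-type adenine than in chow kidneys and all 6 were higher in knockout than in wild-type kidneys. Srebf2 had 72.1 to 79.4 CPM (median 76.3) in knockout adenine libraries, 56.5 to 63.9 CPM (median 61.7) in wild-type adenine libraries and 93.3, 88.8, 85.4 and 85.4 CPM in chow libraries. Its log2 change was -0.53 with the diet (SE 0.045, adjusted p = 1.79e-09) and 0.31 in knockouts (SE 0.04, adjusted p = 6.91e-06). The 3 groups did not overlap. Srebf1 went up with the diet, at 62.8 to 69.3 CPM (median 66.9) in knockout, 51.3 to 55.4 CPM (median 52.2) in wild-type and 38.1, 35.8, 37.7 and 39.6 CPM in chow libraries. It was 1.4 times the chow level in wild type (log2 change 0.48, SE 0.043, adjusted p = 3.75e-09) and 1.26 times the wild-type level in knockouts (log2 change 0.33, SE 0.037, adjusted p = 1.43e-06). Knockout libraries were thus farthest from chow for Srebf1, and nearer to chow than wild type for Srebf2. Transcripts were summed per gene here, so the counts do not separate the 2 products of Srebf1, SREBP-1a and SREBP-1c.

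Insig1, itself a known target of the SREBP factors, had 17.1 to 31.5 CPM (median 26) in knockout adenine libraries, 11 to 15.3 CPM (median 13.5) in wild-type adenine libraries and 32.8, 32.5, 28.8 and 30 CPM in chow libraries. It fell with the diet (log2 change -1.23, SE 0.14, adjusted p = 8.31e-08) and rose in knockouts (log2 change 0.93, SE 0.12, adjusted p = 8.4e-06). Knockout libraries lay above all wild-type libraries and overlapped chow, where the difference was -0.3 (SE 0.13, adjusted p = 0.046). That call was lost without any one chow library or knockout replicate 3, 4 or 5 (adjusted p 0.0571 to 0.127), and with the length offset (0.118), the replicate block (0.0642) and upper-quartile scaling (-0.14, 0.312). Insig2, which responds less to sterols, fell with the diet (log2 change -1.04, SE 0.066, adjusted p = 2.1e-11) and rose by 0.21 in knockouts (SE 0.06, adjusted p = 0.00862). Scap, the escort of the SREBP factors, had 55 to 58.3 CPM (median 56.9) in knockout, 49.4 to 52.7 CPM (median 50.6) in wild-type and 71.1, 70.6, 65 and 69.4 CPM in chow libraries, 3 ranges that did not touch (log2 change 0.16, SE 0.034, adjusted p = 0.00111 for knockout against wild type). Stard4, a soluble carrier of cholesterol between membranes, had 35.2 to 50.8 CPM (median 42.6) in knockout, 26.8 to 33.6 CPM (median 29.7) in wild-type and 82.3, 82, 78.4 and 85.1 CPM in chow libraries. It fell with the diet (log2 change -1.46, SE 0.086, adjusted p = 7.49e-12) and rose in knockouts (log2 change 0.53, SE 0.079, adjusted p = 3e-05), without overlap.

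Of the 7 fatty acid synthesis genes 6 were lower in wild-type adenine than in chow kidneys, and 6 were higher in knockout than in wild-type kidneys. Scd1, the stearoyl-CoA desaturase, changed most of all 32 genes. It had 48.6 to 61.2 CPM (median 54.7) in knockout adenine libraries, 15.2 to 29.9 CPM (median 22.9) in wild-type adenine libraries and 792, 747, 618 and 682 CPM in chow libraries. In wild type it was 0.0315 times the chow level (log2 change -4.99, SE 0.16, adjusted p = 3.2e-15), and in knockouts 2.44 times the wild-type level (log2 change 1.29, SE 0.14, adjusted p = 9.98e-07). Knockout libraries were still at 0.077 times the chow level. Its paralog Scd2 fell slightly with the diet (log2 change -0.24, SE 0.075, adjusted p = 0.00625) and was 1.33 times as high in knockout as in wild-type kidneys (log2 change 0.41, SE 0.067, adjusted p = 6.65e-05). Per transcript length, Scd1 was the most abundant of the 32 genes in chow kidneys at 96.4 ± 13.3 TPM (SD, n = 4), followed by Hmgcs1 at 70.7 ± 4.38 TPM (SD, n = 4).

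Me1, the cytosolic malic enzyme that supplies NADPH, had 67.4 to 105 CPM (median 73.8) in knockout adenine libraries, 35.1 to 50 CPM (median 41.3) in wild-type adenine libraries and 229, 237, 202 and 219 CPM in chow libraries. It fell with the diet (log2 change -2.42, SE 0.11, adjusted p = 1.06e-13) and rose in knockouts (log2 change 0.92, SE 0.097, adjusted p = 6.42e-07), with no overlap between groups. Elovl6, which lengthens palmitate, had 40.5 to 44.6 CPM (median 42.9) in knockout, 33.4 to 38.7 CPM (median 35.4) in wild-type and 159, 148, 126 and 139 CPM in chow libraries. A large fall with the diet (log2 change -1.99, SE 0.058, adjusted p = 1.03e-15) stood beside a small rise in knockouts (log2 change 0.25, SE 0.054, adjusted p = 0.000879). Acly, which makes cytosolic acetyl-CoA from citrate, had 57.3 to 71.5 CPM (median 61.6) in knockout, 48.2 to 53.9 CPM (median 50.4) in wild-type and 120, 125, 103 and 114 CPM in chow libraries. Its groups were apart too, with log2 change -1.19, SE 0.063, adjusted p = 1.41e-12 for the diet and log2 change 0.3, SE 0.057, adjusted p = 0.000286 for the knockout. Fasn, the fatty acid synthase, had a log2 change of -0.68 with the diet (SE 0.044, adjusted p = 2.54e-11) and of 0.27 in knockouts (SE 0.04, adjusted p = 2.93e-05). Acaca, which makes malonyl-CoA, was the only one of the 7 that did not pass in either comparison, with log2 change 0.09, 95% interval -0.06 to 0.24 for the diet and log2 change 0.01, 95% interval -0.12 to 0.14 for the knockout.

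**Figure D3:**
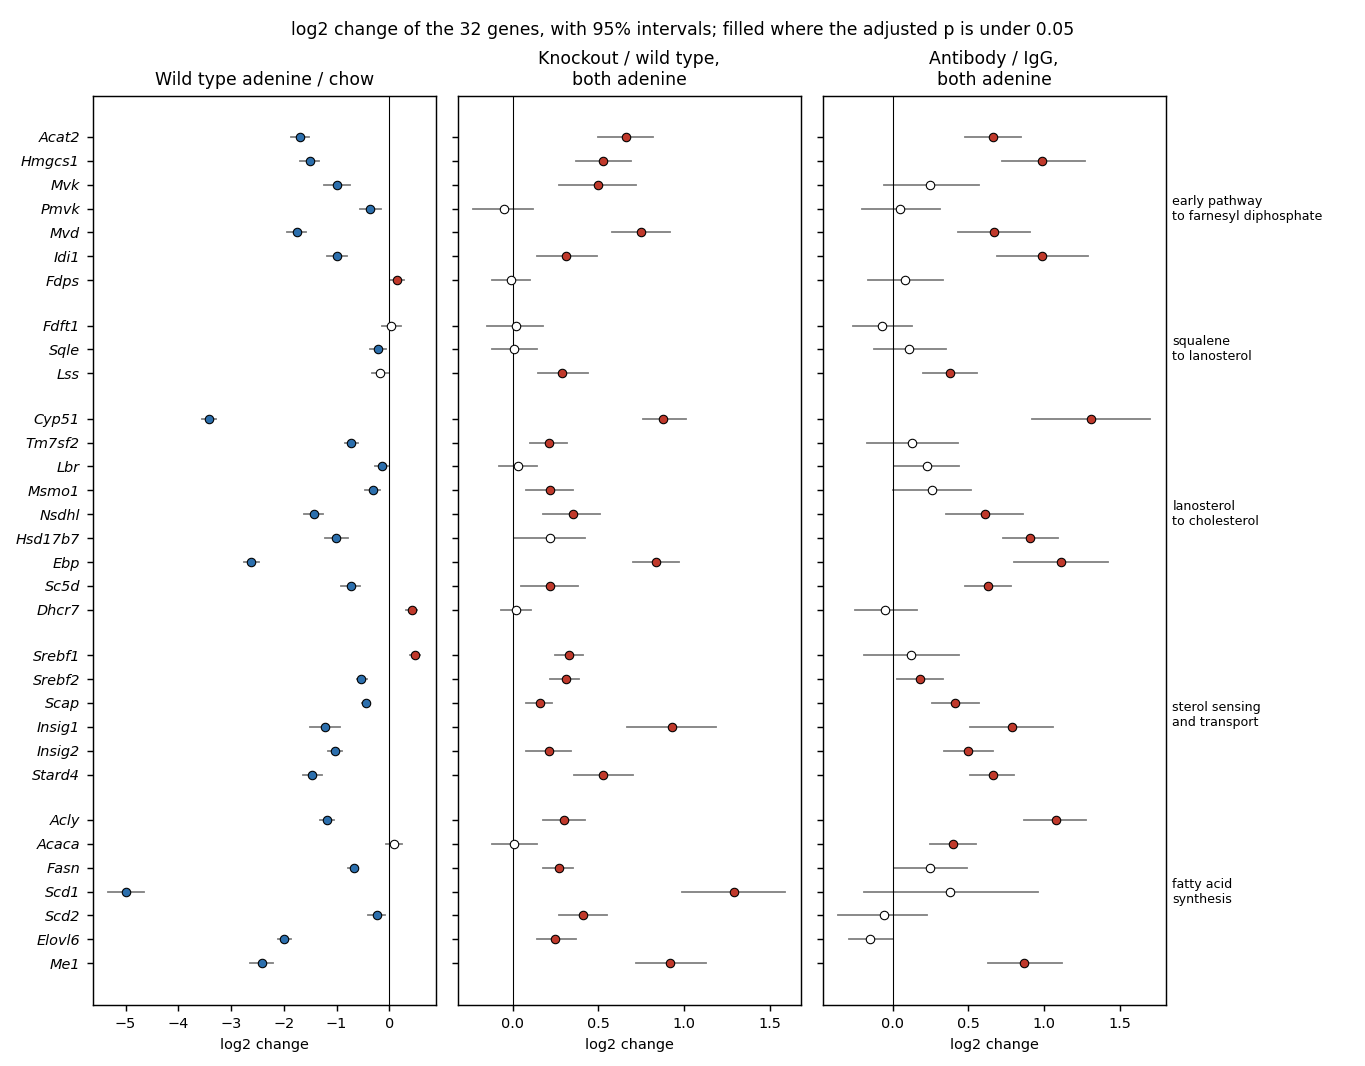
The log2 change of each of the 32 genes (points) with its 95% interval (lines), grouped by place in the pathway, for wild type on adenine over chow, knockout over wild type and antibody over IgG, each panel with its own linear axis. Filled points passed an adjusted p of 0.05, red for higher and blue for lower. The left panel is mostly blue, with Scd1 at -4.99 and Cyp51 at -3.42, and the other panels hold no blue point.

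Calls of small changes depended on single libraries or on the setting. For wild type against chow, Lbr lost its call without any one of wild-type replicates 4 to 6 or chow replicates 1 to 3 (adjusted p 0.0516 to 0.184), Sqle without chow replicate 1 or 2 (0.0559 and 0.0598), Scd2 without chow replicate 1 (0.0669) and Fdps without wild-type replicate 1 (0.0525). Lss gained a call, as lower, without wild-type replicate 5 or chow replicate 3 (0.0139 and 0.0481). It also gained that call with RLE size factors (0.0372), DESeq2 (0.0407) and a transcript length offset (-0.391, adjusted p = 0.00802). Fdps lost its call with DESeq2 (0.0531) and the length offset (0.0881), and Lbr with the replicate block (0.0939) and the length offset (0.244). With upper-quartile scaling Pmvk, Msmo1 and Scd2 lost theirs (0.202 to 0.885), and Fdft1 and Acaca gained one, as higher (0.0136 and 0.000583). Sqle and Lbr also lost their calls as lower with that scaling, because their log2 changes turned above 0 (0.00673 and 0.0764). For knockout against wild type, Sc5d lost its call without knockout replicate 2 or 4 or wild-type replicate 4 (0.0558 to 0.0765), and Hsd17b7 gained one, as higher, without knockout replicate 4 or 5 or wild-type replicate 5 (0.0289 to 0.0433). With a transcript length offset Elovl6 (0.0984, adjusted p = 0.294), Fasn (0.194, adjusted p = 0.0873), Insig2 (0.128, adjusted p = 0.386) and Tm7sf2 (0.134, adjusted p = 0.178) lost their knockout calls, and with upper-quartile scaling Msmo1 and Sc5d did (adjusted p = 0.0613 and 0.0936).

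Proximal tubule RNA moved in the same direction as these genes. All 14 markers of that segment were lower in wild-type adenine than in chow kidneys and all 14 were higher in knockout than in wild-type kidneys. Their summed level was 7407 to 13247 CPM in knockout, 2871 to 5161 CPM in wild-type and 31517 to 34284 CPM in chow libraries. Loop of Henle and distal tubule markers summed to 3641 to 5044 CPM, 2481 to 3084 CPM and 5795 to 7849 CPM in the same 3 groups. Of these 10 markers 8 were lower and 2 higher with the diet, and 7 were higher and 1 lower in knockouts. Injured tubule markers ran the other way at 13855 to 18823 CPM in knockout, 15368 to 23726 CPM in wild-type and 2088 to 2286 CPM in chow libraries. All 12 were higher with the diet, while in knockouts 7 were lower and 5 were not called. The part of these shifts in the result was not tested, and in whole kidney fewer cells of a type and less RNA per cell cannot be told apart.

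Macrophage markers summed to 457 to 621 CPM in knockout, 417 to 645 CPM in wild-type and 192 to 211 CPM in chow libraries, with 11 of 12 higher in wild type than in chow. Fat around the kidney is rich in Scd1, Fasn and Acly. Of the 12 adipose markers 11 were tested. Of these, 8 were lower and 3 higher in wild type than in chow. In knockout against wild type 5 were higher and 2 lower. The 12 summed to 1041 to 1924 CPM in knockout, 598 to 1003 CPM in wild-type and 2402 to 2652 CPM in chow libraries. Most of that sum was Pck1, an enzyme of glucose synthesis that the proximal tubule also makes (1477 ± 315 CPM, 718 ± 155 CPM and 2386 ± 122 CPM). Adipoq, which fat cells alone express in quantity, was at 0 to 0.366 CPM (median 0.061) in knockout, 0 to 0.113 CPM (median 0.018) in wild-type and 0.544 to 1.62 CPM (median 0.862) in chow libraries. Lep did not exceed 0.144 CPM in any library. Adrenal cortex markers summed to 34.3 to 52 CPM, 29 to 34.4 CPM and 90.8 to 108 CPM in knockout, wild-type and chow libraries, mostly through Fdx1. Nr5a1 was at 0 in every wild-type and chow library but not in every knockout library. Of the 4 adrenal markers tested, 2 were higher and 2 lower in wild type than in chow. Between knockout and wild type 1 was higher and 3 were not called. The part of fat and adrenal RNA in the result was not tested.

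The third comparison asked what the antibody did against IgG under the adenine diet. Of the 32 genes, 18 were higher in antibody-treated kidneys and none was lower, against 27.2% called higher and 28% called lower among 16404 tested genes. The other 14 did not pass. None was called lower by DESeq2 or limma voom either, Elovl6 alone had a negative change with an unadjusted p under 0.05, and upper-quartile scaling called Elovl6 lower (-0.304, adjusted p = 0.00229). The median log2 change was 0.39 over the 32 genes and -0.036 over all tested genes. Antibody and IgG libraries did not overlap in 18 of the 32, against 50.6% of all tested genes. Upper-quartile scaling called 2987 of all genes higher and 6616 lower, against 4467 and 4601.

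**Figure D4:**
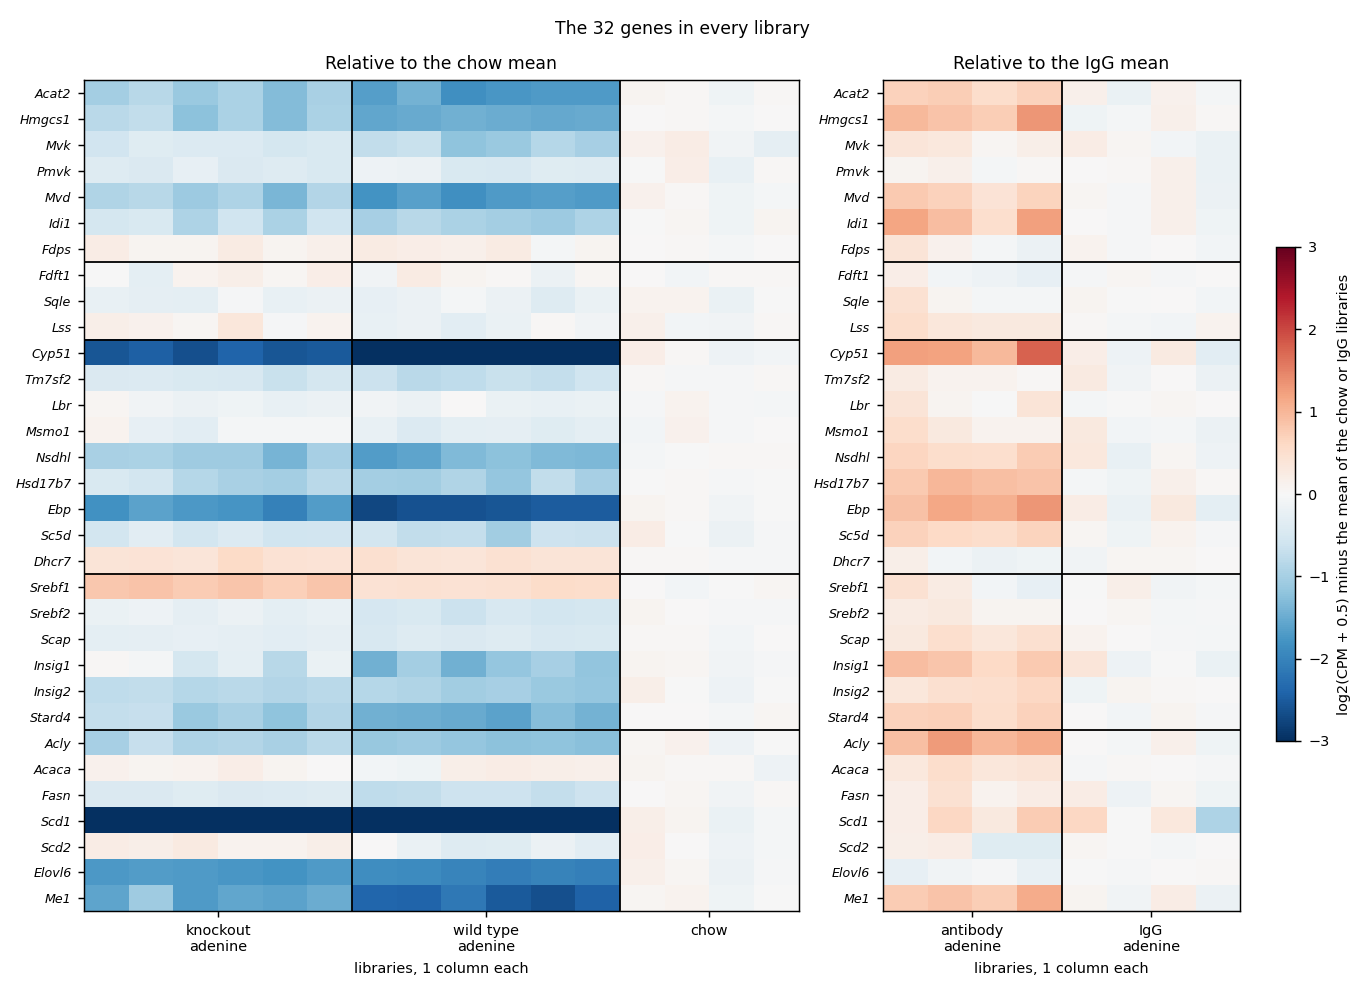
Each column is a library and each row a gene, coloured by log2(CPM + 0.5) minus the mean of the chow libraries (left) or of the IgG libraries (right), red for higher and blue for lower, with colours saturating at 3 in either direction. Black lines separate groups and steps of the pathway. Wild-type columns are the darkest blue for most rows on the left, and most rows of the antibody columns are red on the right.

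In the early pathway 4 of 7 genes were higher with the antibody. Hmgcs1 had 628, 581, 533 and 807 CPM with antibody, against 292, 308, 354 and 328 CPM with IgG (log2 change 0.99, SE 0.13, adjusted p = 0.000132). Idi1 had 99.8, 83.8, 62.8 and 103 CPM with antibody, against 44.1, 43, 48.8 and 40 CPM with IgG (log2 change 0.99, SE 0.14, adjusted p = 0.000217). Both were close to 1.99 times the IgG level, and their libraries did not overlap. Mvd had 15.6, 14.5, 11.9 and 14.2 CPM with antibody, against 9.23, 8.51, 9.82 and 7.68 CPM with IgG (log2 change 0.67, SE 0.11, adjusted p = 0.000486), again apart. Acat2 had 83, 86.5, 74.1 and 82.9 CPM with antibody, against 56.7, 44.7, 55.7 and 48.9 CPM with IgG (log2 change 0.66, SE 0.086, adjusted p = 0.000148). Summed with Acat3 its log2 change was 0.28 (SE 0.096, adjusted p = 0.0296), so the rise of the pair was smaller than that of Acat2 as counted. Mvk, Pmvk and Fdps did not pass, with 95% intervals for the log2 change of -0.06 to 0.57, -0.2 to 0.31 and -0.16 to 0.33.

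Lss was the only one of the 3 genes between farnesyl diphosphate and lanosterol to pass, at log2 change 0.38, SE 0.082, adjusted p = 0.00274. From lanosterol on, 5 of 9 genes were higher with the antibody. Cyp51 had 141, 138, 117 and 203 CPM with antibody, against 68.5, 53.4, 71.9 and 47.6 CPM with IgG. At 2.48 times the IgG level it was the most changed of the 32 (log2 change 1.31, SE 0.18, adjusted p = 0.00018), and antibody replicate 4 was its highest library. Ebp had 57.1, 69.3, 65 and 77.9 CPM with antibody, against 35.7, 26.5, 37.6 and 25.1 CPM with IgG (log2 change 1.11, SE 0.14, adjusted p = 0.000133). Hsd17b7 had 25.4, 29.5, 27.2 and 26.7 CPM with antibody, against 13.8, 13.1, 16.1 and 14.9 CPM with IgG (log2 change 0.91, SE 0.082, adjusted p = 4.36e-05). Neither Ebp nor Hsd17b7 overlapped between groups, and the same held for Nsdhl (log2 change 0.61, SE 0.12, adjusted p = 0.0013) and Sc5d (log2 change 0.63, SE 0.068, adjusted p = 7.29e-05). Dhcr7 had 15.3, 12.6, 11.9 and 12.3 CPM with antibody, against 12.4, 14, 13.9 and 13.5 CPM with IgG, and did not pass (log2 change -0.05, 95% interval -0.25 to 0.16). Tm7sf2, Lbr and Msmo1 did not pass, with log2 changes of 0.13, 0.23 and 0.26.

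Of the regulators and the carrier, 5 of 6 were higher with the antibody. Insig1 had 48.7, 45.4, 38.1 and 43.6 CPM with antibody, against 32.7, 22.8, 24.8 and 21.8 CPM with IgG (log2 change 0.79, SE 0.13, adjusted p = 0.000452). Stard4 had 84.4, 85.5, 74.6 and 84 CPM with antibody, against 52.5, 49.2, 55.3 and 51.1 CPM with IgG (log2 change 0.66, SE 0.066, adjusted p = 5.8e-05). The libraries of both were apart. Scap had 26.9, 31.1, 27.7 and 30.3 CPM with antibody, against 23.3, 21.9, 21.2 and 20.7 CPM with IgG (log2 change 0.41, SE 0.07, adjusted p = 0.00065). Srebf2 had 50.1, 51.2, 44.2 and 44.7 CPM with antibody, against 42.5, 43.9, 40.3 and 40.9 CPM with IgG (log2 change 0.18, SE 0.068, adjusted p = 0.0387), a small change without overlap. Srebf1 had 16.8, 14.4, 11.5 and 10.2 CPM with antibody, against 12, 13.8, 11.2 and 11.6 CPM with IgG, and did not pass (log2 change 0.12, 95% interval -0.19 to 0.44), with antibody libraries on both sides of the IgG range. Insig2 rose as well (log2 change 0.5, SE 0.073, adjusted p = 0.000295).

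In fatty acid synthesis 3 of 7 genes were higher with the antibody. Acly had 126, 163, 135 and 147 CPM with antibody, against 68.2, 65.2, 75.3 and 62 CPM with IgG (log2 change 1.08, SE 0.092, adjusted p = 4.36e-05). Me1 had 433, 462, 425 and 548 CPM with antibody, against 268, 234, 295 and 224 CPM with IgG (log2 change 0.87, SE 0.11, adjusted p = 0.000138). These were 2.11 and 1.83 times the IgG level, with no overlap, and Acaca rose less (log2 change 0.4, SE 0.069, adjusted p = 0.000673). Scd1 had 79.9, 106, 84.7 and 117 CPM with antibody, against 106, 68.9, 86.2 and 36.2 CPM with IgG. The IgG libraries of Scd1 spread widely, the groups overlapped, and the change did not pass (log2 change 0.38, 95% interval -0.19 to 0.96). Fasn (log2 change 0.25, 95% interval 0.01 to 0.49), Scd2 (log2 change -0.06, 95% interval -0.36 to 0.23) and Elovl6 (log2 change -0.15, 95% interval -0.29 to 0) did not pass either.

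Single libraries or the setting decided a few of these calls. Srebf2 lost its call without antibody replicate 1 or 2 or IgG replicate 1, 3 or 4 (adjusted p 0.0528 to 0.112). The Srebf2 call was also lost with no filter on low counts (0.0656) and with upper-quartile scaling (log2 change 0.0277, adjusted p = 0.746). Calls as higher were gained by Lbr with DESeq2 (0.049), Msmo1 with the replicate block (0.0145) and Mvk with the length offset (0.0158). With 1 library left out, Lbr gained a call, as higher, without antibody replicate 3 (0.015), Msmo1 without IgG replicate 1 (0.013), and Fasn without antibody replicate 3 or IgG replicate 1 (0.0459 and 0.0192).

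Proximal tubule markers again moved with these genes: all 14 were higher with the antibody, and their sum was 18633 to 27876 CPM with antibody, against 5389 to 9724 CPM with IgG. Injured tubule markers summed to 21325 to 34830 CPM with antibody, against 42780 to 45774 CPM with IgG, with 10 of 12 lower and 2 not called. Loop of Henle and distal tubule markers summed to 2729 to 4024 CPM with antibody, against 1829 to 2159 CPM with IgG. Of these 10 markers 8 were higher and 1 was lower. All 12 macrophage markers were lower with the antibody, at a sum of 185 to 282 CPM, against 427 to 796 CPM with IgG. The adipose list summed to 3328 to 5485 CPM with antibody, against 1005 to 2092 CPM with IgG, almost wholly Pck1 (4546 ± 901 CPM and 1625 ± 502 CPM), and Adipoq was at 0 in every IgG library and did not exceed 0.0247 CPM with antibody. Of the 7 adipose markers tested here, 1 was higher and 2 were lower with the antibody. The adrenal list summed to 43.9 to 53.9 CPM with antibody, against 26.4 to 35 CPM with IgG. Of its 4 tested genes 1 was higher and 3 were not called. The part of the tubule, macrophage, adipose and adrenal shifts in the result was not tested.

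The knockout and antibody effects come from experiments with no library in common. Of the 24 genes higher in knockouts 16 (66.7%) were also higher with the antibody, which is 88.9% of the 18 genes higher with the antibody. Over the 16076 genes tested in both experiments, 2579 were higher in both, 62.2% of those higher in knockouts and 58.4% of those higher with the antibody. The 16 include Acat2, which did not pass in knockouts when summed with Acat3. Acaca and Hsd17b7 passed with the antibody and not in knockouts. Elovl6, Fasn, Msmo1, Mvk, Scd1, Scd2, Srebf1 and Tm7sf2 passed in knockouts and not with the antibody, and Dhcr7, Fdft1, Fdps, Lbr, Pmvk and Sqle passed in neither. A call in 1 experiment alone does not show a difference between them, so the difference of the effects was tested in a joint fit of the 20 adenine libraries.

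In that fit 10 of the 32 genes had a knockout effect below the antibody effect and 3 had one above it, against 21.6% below and 16.3% above among 17113 tested genes. For the other 19 no difference was called, although Acat2 summed with Acat3 gave a called difference of -0.42 (SE 0.12, adjusted p = 0.012). The median over all 32 genes was -0.16, against -0.026 over all tested genes. Among the 10, Acly differed most, with log2 change -0.85, SE 0.11, adjusted p = 7.85e-06, followed by Hsd17b7 (log2 change -0.77, SE 0.15, adjusted p = 0.000439) and Idi1 (log2 change -0.75, SE 0.17, adjusted p = 0.00131). Acly and Idi1 rose in both experiments, and more with the antibody, whereas the change of Hsd17b7 in knockouts did not pass. Hmgcs1 (-0.54), Cyp51 (-0.51), Sc5d (-0.49), Acaca (-0.47), Insig2 (-0.37), Scap (-0.33) and Lbr (-0.28) differed in the same direction. The 3 genes with the larger knockout effect were the desaturases Scd1 (log2 change 0.83, SE 0.31, adjusted p = 0.0408) and Scd2 (log2 change 0.4, SE 0.15, adjusted p = 0.0375) and the elongase Elovl6 (log2 change 0.32, SE 0.073, adjusted p = 0.00154).

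Among the members with no called difference, the estimate was 0 for Mvd (95% interval -0.29 to 0.29), -0.03 for Me1 (-0.37 to 0.32) and 0.06 for Insig1 (-0.36 to 0.48), which allows a difference in either direction. The intervals of Nsdhl (-0.65 to -0.03) and Ebp (-0.67 to -0.04) lay below 0 although their adjusted p did not pass. The difference lost its call for Scd1 without any one of 11 libraries (adjusted p 0.0506 to 0.12), for Scd2 without any one of 9 (0.0509 to 0.0965), for Lbr without any one of 14 (0.0507 to 0.122) and for Cyp51 without wild-type replicate 4, antibody replicate 4 or IgG replicate 2 or 4 (0.0509 to 0.0734). Without antibody replicate 4 the Cyp51 difference was -0.322. The Lbr difference also lost its call with limma voom, no filter, the replicate block and the length offset (adjusted p 0.0569 to 0.0834). With upper-quartile scaling the calls of Lbr (-0.122, adjusted p = 0.388), Cyp51 (0.105) and Insig2 (0.0558) were lost, and with the replicate block that of Cyp51 (0.0575). The Scd1 difference also lost its call with DESeq2 (adjusted p = 0.0529), limma voom (0.0566), the replicate block (0.0739) and the length offset (0.0508), and with that offset the Elovl6 difference was 0.156 (adjusted p = 0.289) and that of Scd2 0.385 (adjusted p = 0.0512). Experiment and intervention cannot be told apart in this fit, and 10 of 12 macrophage markers had a knockout effect above the antibody effect while 6 of 14 proximal tubule markers had one below it.

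Levels in every library bear on the other called differences. Idi1 had 13.8 to 19.6 CPM (median 17.7) in knockout, against 12.5 to 15 CPM (median 13.5) in wild-type libraries. Hsd17b7 had 7.73 to 11.7 CPM (median 8.93) in knockout, against 6.96 to 9.51 CPM (median 7.84) in wild-type libraries. Both genes overlapped between these groups, whereas with the antibody they did not. Sc5d had 21.1 to 25.8 CPM (median 22) in knockout, against 15.5 to 21.8 CPM (median 20) in wild-type libraries, and 55.7, 51.6, 49.9 and 54.4 CPM with antibody, against 35.5, 31.4, 36.6 and 33.5 CPM with IgG. Insig2 had 20.6 to 22.8 CPM (median 21.8) in knockout, against 16.9 to 21 CPM (median 18.6) in wild-type libraries, and 40.6, 44.8, 45.5 and 49.3 CPM with antibody, against 29.2, 33.5, 32.6 and 32.3 CPM with IgG. These were again apart only in the antibody experiment. Acaca had 21.9 to 25.3 CPM (median 23.3) in knockout, against 20.1 to 25.5 CPM (median 24.5) in wild-type libraries, and 21.1, 24.5, 21.4 and 22.3 CPM with antibody, against 16.6, 17.4, 17.2 and 16.5 CPM with IgG. Scd2 had 121 to 137 CPM (median 128) in knockout, against 86.2 to 114 CPM (median 94.7) in wild-type libraries, and 111, 116, 76.1 and 75.9 CPM with antibody, against 102, 97.1, 95.3 and 100 CPM with IgG. Scd2 was apart in the knockout experiment and overlapped in the antibody experiment, and Acaca did the reverse.

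**Figure D5:**
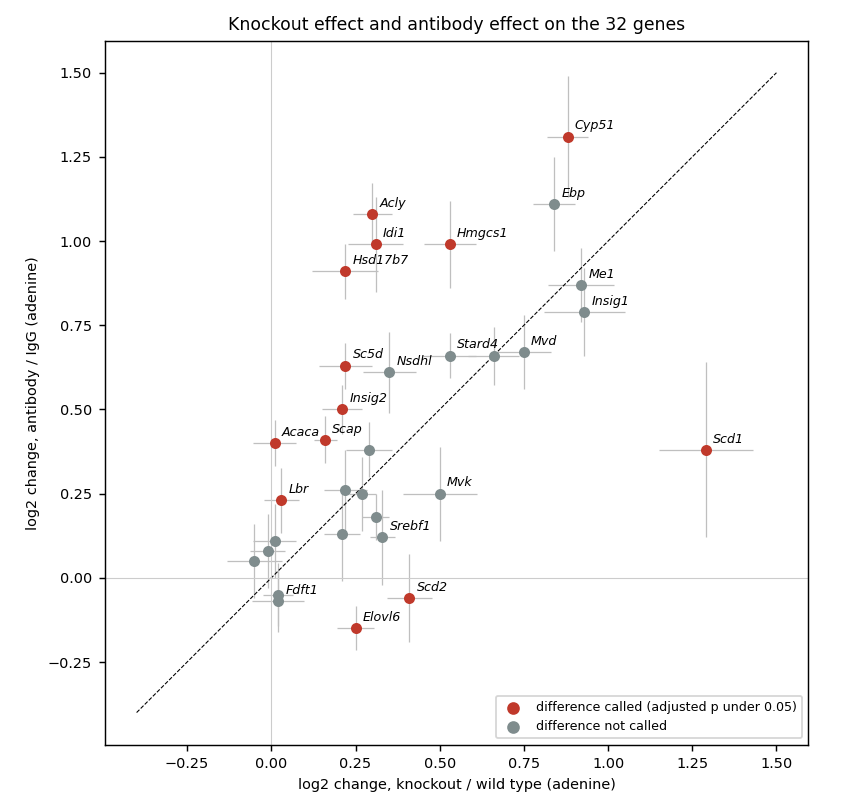
Log2 change in knockout over wild type (horizontal axis) against log2 change in antibody over IgG (vertical axis) for the 32 genes, with SE as grey lines and equal effects on the dashed line. Red points are the 13 genes whose difference was called. Acly, Idi1 and Hsd17b7 lie above the line, and Scd1, Scd2 and Elovl6 lie below it.

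Genes around the pathway were counted in the same fits, to be read against the shares of all tested genes, which were 44% higher and 40.9% lower with the diet, 25.1% higher and 21.3% lower in knockouts, and 27.2% higher and 28% lower with the antibody. Of 25 tested genes of further fatty acid synthesis, elongation and desaturation, 19 were lower and 4 higher in wild-type adenine than in chow kidneys, and 18 were higher and 3 lower in knockout than in wild-type kidneys. Fads2, the delta-6 desaturase, had log2 changes of -2.86 (adjusted p = 2.61e-14) and 1.18 (adjusted p = 9.95e-08), and Acsl1, which activates long-chain fatty acids, -2.53 and 0.97. With the antibody 1 of 26 was lower, Elovl4, an elongase of very long fatty acids that had 1 to 10 reads in antibody libraries, against 6 to 24 in IgG libraries (log2 change -1.95, SE 0.68, adjusted p = 0.0299). The 18 that were higher included Acsl1 (log2 change 1.27, SE 0.18, adjusted p = 0.000227) and Acss2, which makes acetyl-CoA from acetate (log2 change 1.15, SE 0.13, adjusted p = 8.04e-05). Of 22 triglyceride and lipid droplet genes, 15 were lower and 3 higher with the diet, 9 were higher and 1 lower in knockouts, and 8 were higher and 2 lower with the antibody. Dgat2, which makes triglyceride, averaged 57.3 ± 15.6 CPM in knockout (SD, n = 6), 19.2 ± 1.57 CPM in wild-type (SD, n = 6) and 160 ± 11.2 CPM in chow libraries (SD, n = 4). It had 78.1 ± 13.5 CPM with antibody and 21.8 ± 5.64 CPM with IgG (SD, n = 4 each). Its direction was that of Scd1 in the knockout experiment, and the antibody change passed (log2 change 1.84, SE 0.19, adjusted p = 5.81e-05).

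Of 15 genes of the isoprenoid branches, which lead from the mevalonate pathway to dolichol, coenzyme Q and prenylated proteins, 13 were lower and 2 higher with the diet, 7 were higher and 1 lower in knockouts, and 10 were higher and 1 lower with the antibody. Nus1, a subunit of the enzyme that starts dolichol synthesis, had log2 changes of -2.07 (adjusted p = 2.98e-12), 0.81 (adjusted p = 6.36e-06) and 0.86 (adjusted p = 4.55e-05) in the same order. Of 15 genes for SREBP processing and degradation, 9 were lower and 1 higher with the diet, 6 were higher and 3 lower in knockouts, and 9 were higher and 1 lower with the antibody. Prkaa2, a catalytic subunit of AMP-activated kinase, rose with the antibody (log2 change 1.08, SE 0.1, adjusted p = 4.64e-05).

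The 22 genes of sterol uptake, efflux and storage moved both ways, as all tested genes did. With the diet 9 were lower and 8 higher, in knockouts 8 were higher and 5 lower, and with the antibody 9 were higher and 7 lower. Abca1, the cholesterol exporter, was higher in wild-type adenine than in chow kidneys (log2 change 1.75, SE 0.067, adjusted p = 2.01e-14) and lower in knockout than in wild-type kidneys (log2 change -0.42, SE 0.055, adjusted p = 6.78e-06). Gramd1a, which moves cholesterol from the cell membrane to the endoplasmic reticulum, was also higher with the diet (log2 change 2.13, SE 0.072, adjusted p = 4.71e-15). Lipa, the lysosomal acid lipase that frees cholesterol from its esters, moved with the synthesis genes, down with the diet (log2 change -2.06, SE 0.12, adjusted p = 4.88e-12) and up in knockouts (log2 change 0.95, SE 0.11, adjusted p = 1.45e-06). Cyp7b1, an oxysterol hydroxylase, rose with the antibody (log2 change 1.54, SE 0.2, adjusted p = 0.000147), while Ch25h, which makes 25-hydroxycholesterol, fell (log2 change -1.24, SE 0.35, adjusted p = 0.0106).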

How the data were processed

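Whole-kidney RNA was sequenced from stranded TruSeq libraries, per the labels' protocols. The deposited tables hold the authors' Salmon estimated counts and TPM values per transcript, with FastQC, DESeq2 and GRCm39 also named in the submitters' processing notes. No source used here states versions or options. Transcripts were assigned to genes by identifier through GENCODE mouse release 21, an earlier annotation, which matched 115636 of 116755 transcripts (99%); unmatched transcripts held 0.45% to 0.57% of reads. Estimated counts were summed per gene and rounded.

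Differences were tested with edgeR 4.0.16 (R 4.3.3) by the quasi-likelihood F test after filterByExpr and TMM scaling, with Benjamini-Hochberg adjustment over all tested genes at 0.05, and printed adjusted p-values come from it unless another tool is named. The knockout experiment (16 libraries) and the antibody experiment (8 libraries) were fitted apart, and the difference of their effects in the 20 adenine libraries. SEs are the log2 change divided by the root of F. The scripts were tested on simulated data. Alternatives were other scalings, no filter, DESeq2 1.42.0, limma 3.58.1 voom, a transcript length offset, a replicate block and leaving out each library, and summing Acat2 with Acat3 was added after seeing the data. The 32 members, gene lists and markers were chosen with earlier results of these data known. Genes named are the 10 called genes with the largest change per comparison, the main regulators, and up to 3 per pathway list; other members are given where a count would otherwise leave them unaccounted for. Promoters are from RefSeq (GRCm38.p6).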

Additional observations from a re-analysis of the deposited data

Results flagged for a closer look

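Within groups of 4 or 6 libraries, the most extreme library stood apart from the others, by Dixon's gap test at 95%, in 7 of the 160 sets of 1 member in 1 group, and chance gives about 8 (1 in 20). In labelled knockout libraries Pmvk was at 9.33 CPM in replicate 3, with the others at 7.95 to 8.46 CPM. Nsdhl was at 18.5 CPM in knockout replicate 5, with the others at 23.3 to 25.1 CPM, and Dhcr7 at 21.8 CPM in knockout replicate 4, with the others at 18.6 to 19.6 CPM. Me1 was at 105 CPM in knockout replicate 2, with the others at 67.4 to 78.5 CPM. In antibody libraries Stard4 was at 74.6 CPM in replicate 3, with the others at 84 to 85.5 CPM. Chow replicate 2 stood apart for Fdft1, at 27.7 CPM with the others at 29.8 to 30 CPM, and for Lbr, at 31.1 CPM with the others at 27.7 to 28.2 CPM.

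The knockout effect differed from the antibody effect in 13 members, by the test of the difference itself in the joint edgeR fit. As knockout effect minus antibody effect on the log2 scale, it was -0.85 for Acly, -0.77 for Hsd17b7, -0.75 for Idi1, -0.54 for Hmgcs1, -0.51 for Cyp51, -0.49 for Sc5d, -0.47 for Acaca, -0.37 for Insig2, -0.33 for Scap and -0.28 for Lbr. It was 0.83 for Scd1, 0.4 for Scd2 and 0.32 for Elovl6. The experiments differ in more than the intervention, and these cannot be told apart.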

How the results depend on the processing

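The count of members lower with the diet ran from 21 to 27 over the alternatives, that of members higher in knockouts from 20 to 25 and that of members higher with the antibody from 17 to 20. Upper-quartile scaling moved the median log2 change of all genes to 0.3 with the diet, -0.08 in knockouts, 0.19 for knockout against chow, -0.19 with the antibody and 0.13 for the difference of effects. It called 5 members higher with the diet, 7 higher for knockout against chow and 1 lower with the antibody. For knockout against chow it called 8012 of all genes higher and 5700 lower, against 6815 and 6765, and for the difference of effects 4495 above and 2014 below, against 2788 and 3695. With a transcript length offset 2 members were higher for knockout against chow and 0 had a larger knockout effect. Leaving out 1 library gave 2 to 5 and 1 to 3 members for these counts, the lowest for knockout against chow without knockout replicate 1 or 6.

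Some log2 changes turned sign, and the cause was not tested. With upper-quartile scaling these were, with the diet, Sqle 0.00673, Lss 0.0599 and Lbr 0.0764; in knockouts, Fdft1 -0.0483, Sqle -0.0532, Lbr -0.0375, Dhcr7 -0.0456 and Acaca -0.0544. For knockout against chow they were Lbr 0.0389 and Msmo1 0.0559, and with the antibody Pmvk -0.1, Fdps -0.0697, Sqle -0.0431, Tm7sf2 -0.0209 and Srebf1 -0.0321. With the length offset they were, in knockouts, Fdft1 -0.00279, Lbr -0.0319 and Acaca -0.00187, for knockout against chow Lss -0.0718, and with the antibody Dhcr7 0.00304 and Srebf1 -0.0162. Fdps in knockouts was 0.00128 with RLE size factors and 0.00123 with DESeq2, and Acat2, at 0.66 by itself, was -0.0619 when summed with Acat3.

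Leaving out 1 library gave ranges across 0 for Fdft1 with the diet (-0.0109 to 0.0765). In knockouts the ranges were -0.0441 to 0.0166 for Fdps, -0.0267 to 0.0756 for Fdft1, -0.0253 to 0.0425 for Sqle, -0.0103 to 0.06 for Lbr, -0.0133 to 0.0356 for Dhcr7 and -0.0302 to 0.0378 for Acaca. With the antibody they were -0.0152 to 0.115 for Pmvk, -0.0306 to 0.168 for Fdps, -0.0152 to 0.181 for Sqle, -0.131 to 0.0102 for Dhcr7, -0.00825 to 0.231 for Srebf1 and -0.171 to 0.0456 for Scd2.

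Same-numbered libraries did not deviate together over all genes (correlations across genes of -0.19 to 0.1). A pairing that touches few genes would not show in these correlations, so they do not settle whether the numbers pair libraries. With the replicate block 25 members were lower and 3 higher with the diet, 24 higher in knockouts, 22 lower and 4 higher for knockout against chow, and 19 higher with the antibody, while 8 had a smaller and 2 a larger knockout effect.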

Other observations

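The groups on adenine without deletion or antibody differed between experiments. These were normalised apart, differed in read depth and are not stated to have been handled together, so these levels are values only. Srebf1 averaged 52.9 CPM in wild-type adenine libraries and 12.1 CPM in IgG adenine libraries. Me1 averaged 41.4 and 255 CPM, Hmgcs1 117 and 320 CPM, Idi1 13.6 and 44 CPM, and Sqle 35.6 and 84.3 CPM in the same order. Tm7sf2, at 12 and 4.3 CPM, was lower in the IgG libraries, as Srebf1 was. Per transcript length, Hmgcs1 was the highest of the 32 genes in both, at 47.4 ± 3.96 TPM in wild-type (SD, n = 6) and 106 ± 19.7 TPM in IgG libraries (SD, n = 4).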
